A study of Mus musculus with 24 samples.

Results

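The genes described here encode the chains of interleukin-6 (IL-6) and of the interleukin-12 (IL-12) cytokine family: Il6, Il12a, Il12b, Il23a, Il27 and Ebi3. They were taken by gene symbol, and each of the 6 symbols had 1 entry among the 55401 genes of the authors' count table. The counts come from RNA of mouse bone marrow-derived macrophages, sequenced as QuantSeq FWD libraries, which read each mRNA near its poly(A) tail. The marrow came from wild-type C57BL/6J mice, and the cells had matured in 15% L929-conditioned medium, which supplies M-CSF. The groups were cells given sphingomyelin d18:1/14:0 (S14) at 30 µM, cells given lipopolysaccharide (LPS) at 100 ng/mL, and untreated cells, each harvested at 3 h and at 18 h. LPS is an outer membrane component of Gram-negative bacteria that Toll-like receptor 4 senses. Every group held 4 libraries, so each mean ± SD below has n = 4. The labels give 4 replicates of a group but do not say that each came from its own mouse, so the p-values measure the spread between these libraries.

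IL-6 is a single-chain cytokine that signals through its own receptor chain and gp130 to JAK kinases and STAT3, and it drives fever and the acute-phase response. The IL-12 family cytokines are pairs of chains. Il12b encodes p40, which joins p35 from Il12a to make IL-12, a driver of interferon-gamma production by T and NK cells, or p19 from Il23a to make IL-23, which sustains IL-17-producing T cells. Il27 encodes p28, which joins EBI3 to make IL-27, a cytokine that both promotes early T helper 1 responses and restrains inflammation. EBI3 also pairs with p35 as IL-35. Macrophages and dendritic cells are major sources of IL-6, IL-12, IL-23 and IL-27 after Toll-like receptor signals. These signals reach the promoters of the cytokine genes through NF-kB, C/EBP, AP-1 and IRF factors.

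The bases before the transcription start are shown for 3 members that rose 3 h after S14 and had an entry in the RefSeq promoter table (build GRCm38.p6), which held 4 of the 6 members. Each line gives the 250 bases before the start, 5' to 3', with matches to the motifs searched in capitals. The windows lie on the plus strand, at chr5:30012864-30013113 for Il6, chr11:44399813-44400062 for Il12b and chr17:55952373-55952622 for Ebi3.
Il6: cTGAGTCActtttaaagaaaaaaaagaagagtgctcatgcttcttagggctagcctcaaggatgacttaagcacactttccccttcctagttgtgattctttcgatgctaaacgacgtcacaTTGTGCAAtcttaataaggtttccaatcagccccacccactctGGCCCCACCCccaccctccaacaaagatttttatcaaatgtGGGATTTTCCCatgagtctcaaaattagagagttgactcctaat
Il12b: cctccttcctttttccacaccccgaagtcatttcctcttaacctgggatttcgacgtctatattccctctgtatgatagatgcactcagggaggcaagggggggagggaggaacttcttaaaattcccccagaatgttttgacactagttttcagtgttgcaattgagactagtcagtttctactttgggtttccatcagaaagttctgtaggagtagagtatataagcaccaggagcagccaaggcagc
Ebi3: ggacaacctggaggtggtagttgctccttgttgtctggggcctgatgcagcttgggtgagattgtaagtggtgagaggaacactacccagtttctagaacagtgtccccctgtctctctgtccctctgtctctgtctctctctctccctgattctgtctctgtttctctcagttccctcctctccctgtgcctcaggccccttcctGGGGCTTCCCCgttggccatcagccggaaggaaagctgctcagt
The search covered 250 bases before and 50 after the start, on both strands, for 5 motifs. They were NF-kB (GGGNNNNNCC), C/EBP (TTGCNNAA), AP-1 (TGANTCA), an interferon-stimulated response element (GAAANNGAAA) and the TATA box (TATAAA). These motifs occurred in 50.8%, 10.8%, 7.81%, 3.44% and 13.6% of the 32851 promoter windows in the table, in the order just given. In Il6, an AP-1 match began at position -249 from the start and a C/EBP match at -128. Il6 also held an NF-kB match at -85 and an overlapping pair, 1 per strand, at -44 and -43. Ebi3 held overlapping NF-kB matches at -44 and -43 as well. Its other 2 NF-kB matches lay 14 and 35 bases after the start, outside the bases shown. Il12b held no match to these letters. The search took exact strings, so a site that departs from them would be missed in any of the promoters. A match is a description of the letters and not a measured binding site.

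Library totals ran from 3334182 to 6350251 reads, with 13405 to 15505 genes detected, and 11717 genes passed the filter on low counts and were tested. Of the 6 members, Il6, Il12b, Il27 and Ebi3 passed it, and Il12a and Il23a did not. Il6 and Il12b passed through their reads in treated cells, so counts over the tested members are given as a description. Levels are CPM, reads scaled to a common library total after TMM normalization; a single Il6 read amounted to 0.199 CPM in an S14 library at 18 h. All 8 macrophage markers checked had reads in every group, with a summed level of 16000 to 45800 CPM. Lyz2 was the largest part of that sum, with group means from 10800 CPM (LPS, 18 h) to 28500 CPM (untreated, 18 h). Mertk was the lowest, at a mean of 10.8 CPM in S14 cells at 3 h. Among the untreated 18 h libraries, the fourth had the widest spread from its group (0.518, the SD of its log2 deviations, against 0.327 to 0.345 in the other 3). In RNA from whole cultures, more cells expressing a gene and more RNA per cell cannot be told apart.

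Il6 rose 3 h after S14 and far more after LPS, and it was close to absent from untreated cells. At 3 h the S14 libraries held 19, 43, 46 and 49 Il6 reads, the LPS libraries 1367, 1108, 1247 and 1132, and the untreated libraries 0, 1, 0 and 0. Every S14 library was above every untreated library and below every LPS library. The mean level was 8.26 ± 2.36 CPM in S14 cells, 319 ± 34.5 CPM in LPS cells and 0.0563 ± 0.113 CPM in untreated cells. With 1 read over all untreated libraries at 3 h, the fold is given as a ratio of summed levels with its 95% counting interval. S14 over untreated was 143 (25.4 to 5700; edgeR adjusted p = 7.05e-09), and LPS over untreated was 5450 (979 to 216000; edgeR adjusted p = 4.67e-21). Set directly against LPS, the S14 level was 2.59% of the LPS level (log2 fold change -5.25 ± 0.21 SE, edgeR adjusted p = 1.03e-18).

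By 18 h Il6 had dropped back in both treatments. The S14 libraries then held 1, 0, 0 and 0 reads, the LPS libraries 3, 19, 14 and 28, and no untreated library held any. A difference between S14 and untreated cells was not detectable at this depth. LPS cells averaged 3.68 ± 2.33 CPM, and even the library with 3 reads lay above all untreated and all S14 libraries. Against a floor of 3 reads over the untreated group, Il6 was at least 30.1-fold higher after LPS (edgeR adjusted p = 8.75e-08). The S14 level at 18 h was 0.00634 times the 3 h level in S14 cells (95% counting interval 0.00016 to 0.0359; edgeR adjusted p = 1.06e-09). In LPS cells the 18 h level was 1.16% of the 3 h level (log2 fold change -6.42 ± 0.23 SE, edgeR adjusted p = 8.86e-20).

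Il12b, which encodes the p40 chain shared by IL-12 and IL-23, also rose at 3 h in both treatments. The S14 libraries at 3 h held 39, 42, 61 and 74 reads, the LPS libraries 381, 376, 333 and 447, and the untreated libraries 0, 2, 0 and 0. The 3 groups did not overlap. The mean level was 11.3 ± 1.58 CPM after S14, 101 ± 14.7 CPM after LPS and 0.113 ± 0.225 CPM without treatment. The ratio of summed levels was 98.7 for S14 over untreated (95% counting interval 27 to 820; edgeR adjusted p = 3.88e-09). For LPS over untreated the ratio was 864 (239 to 7140; edgeR adjusted p = 7.71e-17). The S14 level was 11.2% of the LPS level (log2 fold change -3.14 ± 0.27 SE, edgeR adjusted p = 1.51e-11).

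At 18 h Il12b was near 0 in all groups. The S14 libraries held 0, 0, 6 and 0 reads, the LPS libraries 1, 8, 2 and 0, and the untreated libraries 0, 0, 2 and 0. The groups overlapped, and 1 library carried most of each treated group's reads. LPS over untreated was called at the margin, with a ratio of 7.75 (95% counting interval 1.69 to 71.9; edgeR adjusted p = 0.0498). Without the LPS library that held 8 reads the log2 fold change was 1.21 ± 1.31 SE instead of 2.61 ± 1.13 SE, and the call was lost (edgeR adjusted p = 0.456). S14 against LPS was not called (log2 fold change -0.94 ± 0.94 SE, edgeR adjusted p = 0.451). Without the S14 library that held 6 reads it was called (log2 fold change -4.63 ± 1.5 SE, edgeR adjusted p = 0.0126). The S14 group then had no Il12b read, so the size of that fold change is not usable. Between the times the decline was large in both treatments. The 18 h level was 2.93% of the 3 h level in S14 cells (log2 fold change -5.05 ± 0.53 SE, edgeR adjusted p = 2.28e-09) and 0.666% in LPS cells (log2 fold change -7.25 ± 0.4 SE, edgeR adjusted p = 2.44e-16).

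The partner chains of p40 were far scarcer in reads and were below the filter for the test. Il12a, encoding the p35 chain of IL-12, had no read in any S14 library at either time, nor in untreated cells at 3 h or LPS cells at 18 h. Its 14 reads at 3 h after LPS fell in 3 of the 4 libraries, as 0, 2, 3 and 9. At 18 h, 1 untreated library held 3 Il12a reads and the other 3 held none. Against the floor of 3 reads over the untreated group, LPS at 3 h was at least 5.24-fold higher, although the LPS library without reads overlapped the untreated ones. An exact two-sided permutation test gave p = 0.143, or 0.322 after adjustment over the 18 tests on Il12a and Il23a. After that adjustment, a value under 0.05 would need most of the 18 tests to reach the smallest p possible with 4 against 4 libraries. In several of them neither group held a read, so the adjusted values cannot decide the question. With no filter on low counts, edgeR called Il12a for LPS over untreated at 3 h (edgeR adjusted p = 0.0192).

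Il23a, encoding the p19 chain of IL-23, had a few reads at 3 h in each treated library. The S14 libraries held 6, 3, 5 and 11, the LPS libraries 12, 5, 7 and 18, and the untreated libraries 0, 2, 1 and 2. Both treated groups lay above the untreated group, and they overlapped each other. The level was 1.29 ± 0.515 CPM after S14, 2.75 ± 1.52 CPM after LPS and 0.295 ± 0.233 CPM without treatment. The ratio of summed levels was 4.57 for S14 over untreated (95% counting interval 1.72 to 15.3) and 9.44 for LPS over untreated (3.74 to 30.6). Each of these reached p = 0.0286 in an exact two-sided permutation test, the smallest that 4 against 4 libraries allow, and 0.129 after adjustment over the same 18 tests. As for Il12a, the adjusted value cannot decide the question. The S14 mean was 47% of the LPS mean at 3 h, with an exact permutation p of 0.143. In the fit without a filter, LPS against untreated at 3 h was called (edgeR adjusted p = 0.00928) and S14 against untreated was not (edgeR adjusted p = 0.313). At 18 h neither treated group had an Il23a read, and the untreated libraries held 1, 0, 1 and 0. Measured against the floor, the 18 h level was at least 8.37-fold lower than the 3 h level in S14 cells and at least 15.9-fold lower in LPS cells.

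Il27, encoding the p28 chain of IL-27, was readable in all 24 libraries. At 3 h the S14 libraries held 61, 73, 39 and 74 reads, the LPS libraries 1510, 1750, 1782 and 1777, and the untreated libraries 13, 11, 8 and 6. The groups were fully separated. Il27 rose to 13.4 ± 3.97 CPM after S14 and 447 ± 34.3 CPM after LPS, against 2.21 ± 0.697 CPM in untreated cells. The log2 fold change was 2.57 ± 0.32 SE for S14 over untreated (edgeR adjusted p = 5.29e-07) and 7.64 ± 0.25 SE for LPS over untreated (edgeR adjusted p = 7.57e-21). In S14 cells Il27 stood at 3% of the LPS level (log2 fold change -5.07 ± 0.2 SE, edgeR adjusted p = 8.33e-19).

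At 18 h Il27 was still higher after LPS, whereas S14 and untreated libraries overlapped. The S14 libraries held 12, 8, 8 and 3 reads, the LPS libraries 60, 53, 52 and 28, and the untreated libraries 14, 6, 7 and 18. The means were 1.62 ± 0.711 CPM after S14, 11.3 ± 3.59 CPM after LPS and 1.95 ± 1.15 CPM without treatment. LPS over untreated had a log2 fold change of 2.57 ± 0.32 SE (edgeR adjusted p = 7.73e-08). S14 over untreated was -0.18 ± 0.47 SE (95% interval -1.16 to 0.81; edgeR adjusted p = 0.828), and S14 over LPS was -2.75 ± 0.35 SE (edgeR adjusted p = 1.93e-07). Under scaling by spike-in RNAs, which lowered the median of all genes by 0.97 in this S14 comparison, Il27 was called lower after S14 (-1.17 ± 0.49 SE, edgeR adjusted p = 0.0355). That call was absent with the fourth untreated 18 h library left out of the spike-in fit. The 18 h level was 12.1% of the 3 h level in S14 cells and 2.52% in LPS cells.

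Ebi3, the partner chain of p28, had 398 reads or more in every untreated library, and its fold changes at 3 h were the smallest of the 4 tested members. Its reads at 3 h numbered 809, 855, 953 and 1190 in S14 libraries, 1979, 1896, 2079 and 2155 in LPS libraries, and 512, 491, 441 and 398 in untreated libraries. All S14 libraries lay between the untreated and the LPS libraries, also after scaling for depth. Ebi3 reached 203 ± 3.92 CPM after S14 and 532 ± 22.6 CPM after LPS, against 107 ± 10.4 CPM in untreated cells. The log2 fold change was 0.92 ± 0.1 SE for S14 over untreated (edgeR adjusted p = 7.11e-10) and 2.31 ± 0.1 SE for LPS over untreated (edgeR adjusted p = 1.89e-23). The S14 level was 38.2% of the LPS level (log2 fold change -1.39 ± 0.1 SE, edgeR adjusted p = 2.74e-16). Under spike-in scaling the S14 rise had a larger standard error and was not called (1.03 ± 0.32 SE, edgeR adjusted p = 0.0561). It was called with the fourth untreated 18 h library left out of the spike-in fit.

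After LPS, Ebi3 was still high at 18 h. At that time the S14 libraries held 585, 546, 484 and 488 reads, the LPS libraries 2191, 1811, 1635 and 1581, and the untreated libraries 688, 747, 701 and 696. The mean was 111 ± 4.03 CPM after S14, 420 ± 78.5 CPM after LPS and 118 ± 14.7 CPM without treatment. LPS over untreated had a log2 fold change of 1.84 ± 0.1 SE (edgeR adjusted p = 5.31e-20), with all LPS libraries above all untreated ones. S14 and untreated libraries overlapped, at -0.08 ± 0.1 SE (95% interval -0.28 to 0.13; edgeR adjusted p = 0.625). Spike-in scaling, with its shift of all genes in this comparison, gave -1.09 ± 0.32 SE (edgeR adjusted p = 0.00443), and no call with the fourth untreated library left out. In LPS cells the 18 h level was 79% of the 3 h level (log2 fold change -0.34 ± 0.09 SE, edgeR adjusted p = 0.00155), and the libraries of the 2 times overlapped. In S14 cells it was 54.8% of the 3 h level (log2 fold change -0.87 ± 0.1 SE, edgeR adjusted p = 7.7e-10).

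**Figure D1:**
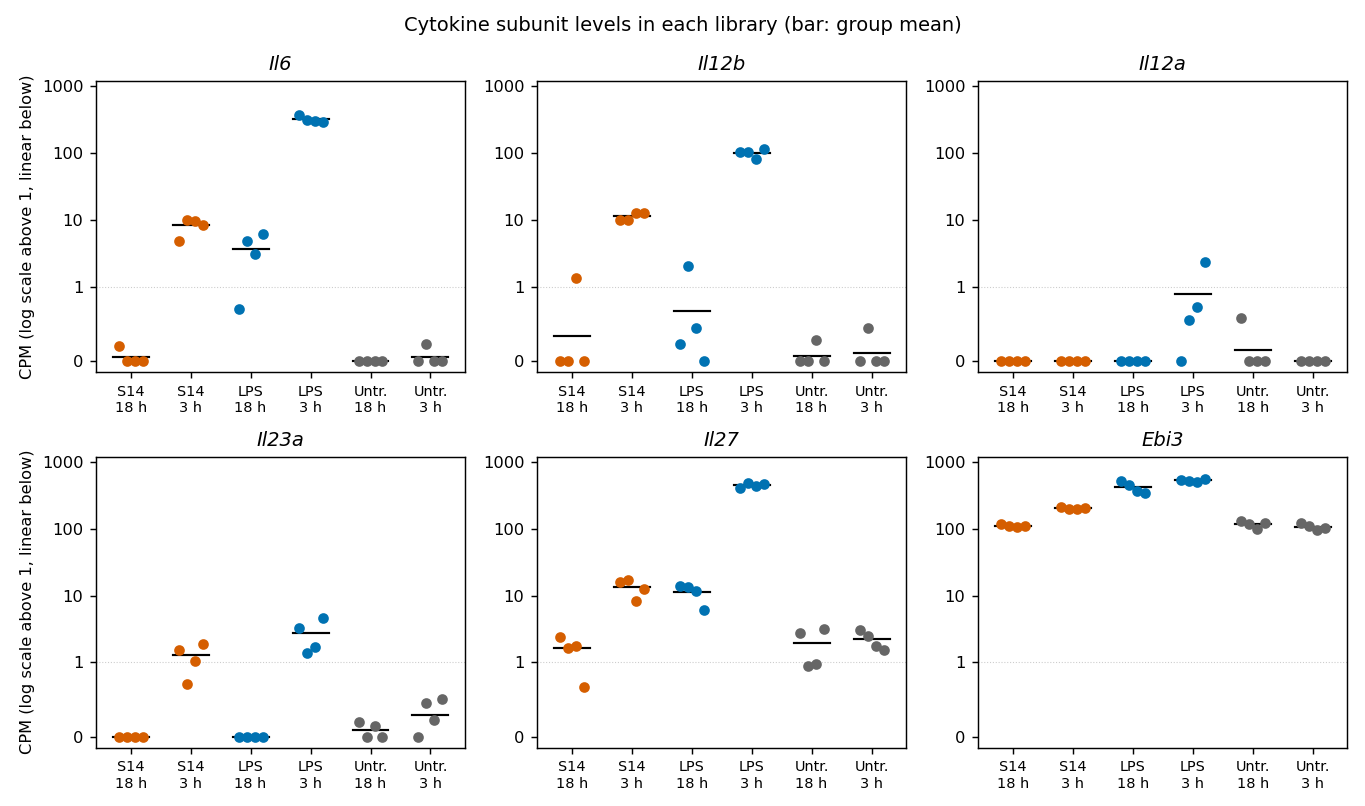
Level of each cytokine chain in every library, in CPM of the TMM-scaled library (vertical axis, logarithmic above 1 CPM and linear below it), by treatment and time, with 4 points per group and a bar at the group mean. In Il6, Il12b and Il27 the LPS libraries at 3 h stand apart near 319, 101 and 447 CPM, the S14 libraries at 3 h average 8.26, 11.3 and 13.4 CPM, and Ebi3 stays at 107 CPM or more in the mean of every group.

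The order of the 6 groups had the same top for these 4 genes, LPS at 3 h. For Il6, Il12b and Il27 the next group was S14 at 3 h, followed by LPS at 18 h. S14 at 3 h and LPS at 18 h overlapped for Il6 and for Il27, whereas for Il12b they did not. For Ebi3, LPS at 18 h came next and overlapped LPS at 3 h, and S14 at 3 h followed, apart from both its neighbours. The remaining 3 groups, which were S14 at 18 h and untreated cells at both times, overlapped one another for each of the 4 genes, and for Il12b LPS at 18 h overlapped them too.

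Counted over the comparisons, 4 of the 4 tested members were called higher by S14 at 3 h, where 9.05% of all 11717 tested genes were higher. In 5 of the 6 members (all but Il12a) every S14 library exceeded every untreated library at 3 h, as did 11.1% of tested genes. LPS at 3 h also raised 4 of 4, against 25.3% of tested genes. In S14 against LPS at 3 h, 4 of 4 were lower after S14, against 22.4% of tested genes. At 18 h, S14 against untreated called 0 of the 4, where 24.3% of tested genes were called in either direction. Il6 had 1 read in S14 cells and 0 in untreated cells there, and Il12b had 6 and 2, a ratio of summed levels of 3.88 (95% counting interval 0.694 to 39.3). LPS at 18 h called 4 of 4 higher, against 27.3% of tested genes, with Il12b at the margin described above. In S14 against LPS at 18 h, 3 of 4 were lower after S14 (all but Il12b), against 21.3% of tested genes. The treated groups at each time share their untreated libraries.

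**Figure D2:**
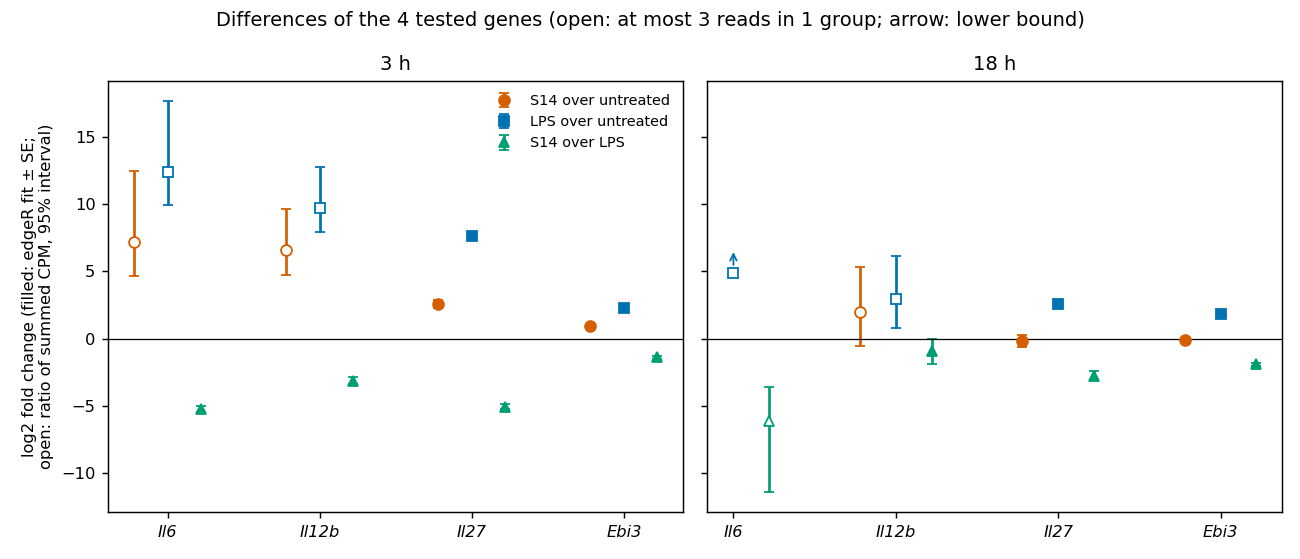
Fitted log2 fold changes of the 4 tested genes (vertical axis, edgeR, ± SE) for S14 over untreated, LPS over untreated and S14 over LPS at 3 h (left) and 18 h (right); where a group held 1 to 3 reads, an open symbol gives the log2 ratio of summed levels with its 95% counting interval, and where it held 0 reads an arrow gives the lower bound against 3 reads. No point is drawn for Il6 in S14 over untreated at 18 h, with 1 and 0 reads. At 3 h the S14 points of Il27 and Ebi3 lie at 2.57 and 0.92, and at 18 h at -0.18 and -0.08.

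Over time, 4 of 4 members fell between 3 h and 18 h in S14 cells, where 22.2% of tested genes fell. In LPS cells 4 of 4 fell as well, against 32.7% of tested genes. In untreated cells 0 of 4 was called between the times, where 38.8% of tested genes were called in either direction. The difference between the 18 h and the 3 h response was tested as an interaction. For S14, the response was smaller at 18 h for Il27 (log2 difference -2.74 ± 0.59 SE, edgeR adjusted p = 0.00127) and Ebi3 (-1 ± 0.14 SE, edgeR adjusted p = 9e-07). These were 2 of the 4 tested members, against 8.98% of tested genes. For Il12b the difference of -4.65 ± 2.39 SE was not called (edgeR adjusted p = 0.202), and for Il6 a group without reads leaves no usable estimate. For LPS, the response was smaller at 18 h for Il12b (-6.85 ± 2.6 SE, edgeR adjusted p = 0.028), Il27 (-5.07 ± 0.53 SE, edgeR adjusted p = 4.91e-09) and Ebi3 (-0.47 ± 0.14 SE, edgeR adjusted p = 0.00352). That is 3 of 4, against 26.1% of tested genes. The Il12b value rested on 2 untreated reads at 18 h. Without the library that held them, the untreated 18 h group had no Il12b read. The difference was then -4.86 ± 42.79 SE (edgeR adjusted p = 0.938).

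The 2 chains of IL-27 did not keep a fixed ratio of reads. Because each gene's 3' end is captured with its own efficiency, the ratio is compared only between groups. At 3 h there were 4.14 to 8.59 Il27 reads per 100 Ebi3 reads in the S14 libraries, 76.3 to 92.3 in the LPS libraries and 1.63 to 2.63 in the untreated libraries. The ranges did not overlap. At 18 h the ratio was 0.716 to 2.13 after S14, 1.8 to 3.21 after LPS and 0.87 to 2.66 in untreated cells, with all ranges overlapping. Between the treatments at 3 h the ratio of Il6 to Il12b reads also differed, at 49.4 to 102 Il6 reads per 100 Il12b reads in S14 libraries and 253 to 374 in LPS libraries. These ratios, with 0.5 read added to each count, were computed after the levels had been seen and carry no test.

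**Figure D3:**
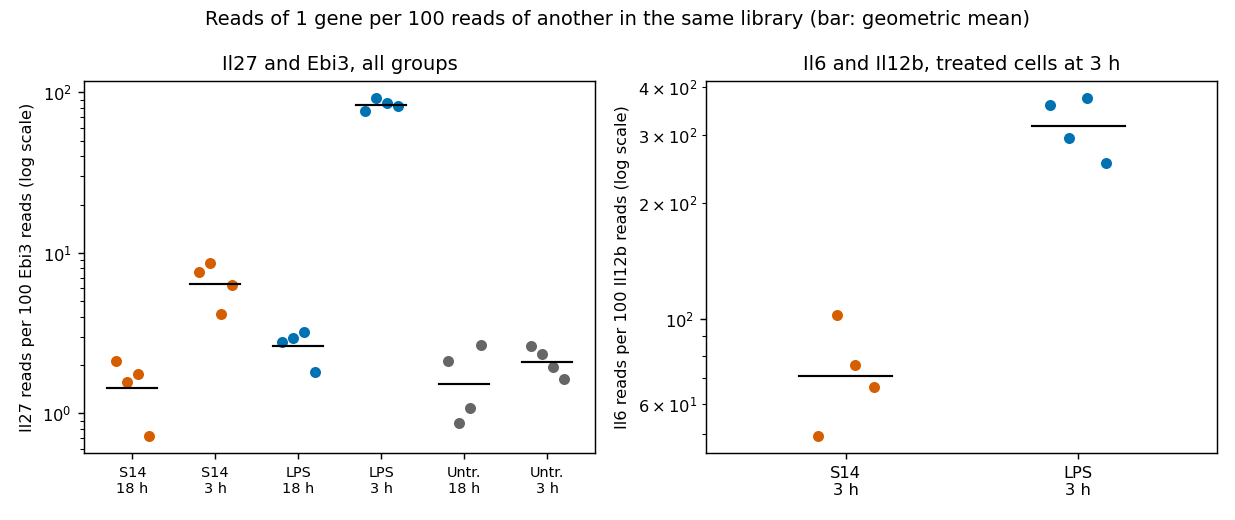
Reads of Il27 per 100 reads of Ebi3 in each library of all groups (left) and reads of Il6 per 100 reads of Il12b in treated cells at 3 h (right), both on logarithmic axes, with a bar at the geometric mean of the 4 libraries. The LPS libraries at 3 h reach 76.3 to 92.3 on the left, while the LPS libraries at 18 h lie between 1.8 and 3.21.

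Over all 11717 tested genes, S14 called 1060 higher and 726 lower at 3 h, and 1480 and 1364 at 18 h, or 24.3%. LPS called 2964 higher and 3536 lower at 3 h, and 3200 and 3317 at 18 h. S14 against LPS called 2775 higher and 2624 lower at 3 h, and 2496 and 2500 at 18 h. The counts for the gene lists below stand beside these numbers. Of the 10 listed receptor chains of these cytokines, 7 passed the filter. Il6ra, the IL-6 binding chain, fell at 3 h in both treatments, to 84.8 ± 8.57 CPM after S14 and 46.2 ± 8.78 CPM after LPS, against 155 ± 7.69 CPM in untreated cells. The log2 fold changes were -0.87 ± 0.1 SE (edgeR adjusted p = 6.2e-09) and -1.74 ± 0.11 SE (edgeR adjusted p = 5.59e-18). Il6ra and Il6st (gp130, named after its values were seen) were the 2 of 7 called lower by S14 at 3 h, with 0 higher, and the median over the 6 chains with over 3 reads in either group was -0.59, against -0.03 over all tested genes. Under spike-in scaling 0 of 7 were called, and 1 with the fourth untreated 18 h library left out. LPS at 3 h called 2 of 7 higher and 3 lower (median -0.24, against -0.11 over all tested genes). S14 against LPS at 3 h called 3 higher and 2 lower, with Il6ra higher after S14 by 0.87 ± 0.11 (log2, SE; edgeR adjusted p = 7.72e-09). Under spike-in scaling that split was 0 higher and 2 lower, and the Il6ra call was lost (0.61 ± 0.34 SE, edgeR adjusted p = 0.232). With the fourth untreated 18 h library left out of the spike-in fit, the split was 1 higher and 2 lower. At 18 h S14 called 1 of 7 higher, Il12rb1 (23 reads after S14 and 1 in untreated cells, named after its values were seen), and 3 lower, among them Il6ra (-0.54 ± 0.1 SE, edgeR adjusted p = 3.22e-05). LPS at 18 h called 2 higher and 5 lower, and Lifr, the receptor chain of leukemia inhibitory factor, stood at 21.3 ± 3.07 CPM after S14, 1.3 ± 0.804 CPM after LPS and 28.5 ± 4.43 CPM in untreated cells. Its log2 fold change after LPS was -4.4 ± 0.35 SE (edgeR adjusted p = 7.18e-14) and in S14 over LPS 3.98 ± 0.36 SE (edgeR adjusted p = 4.76e-12). In S14 against LPS at 18 h, 4 of 7 were higher after S14 and 2 lower, and under spike-in scaling 1 higher and 2 lower.

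Downstream of the receptors, 6 of 8 JAK, STAT and SOCS genes were higher 3 h after S14 and 0 lower, with a median log2 fold change of 0.66 against -0.03 over all tested genes. LPS at 3 h called 7 of 8 higher and 0 lower (median 1.93, against -0.11 over all tested genes). Socs3, the feedback inhibitor of gp130 signalling, had 217 ± 38.3 CPM after S14, 2000 ± 97.3 CPM after LPS and 18.1 ± 2.52 CPM in untreated cells at 3 h. Its log2 fold changes were 3.59 ± 0.21 SE for S14 (edgeR adjusted p = 2.21e-11) and 6.78 ± 0.22 SE for LPS (edgeR adjusted p = 7.81e-17). Socs3 was also higher after S14 at 18 h, by 2.88 ± 0.28 (log2, SE; edgeR adjusted p = 1.04e-07), at a time when none of the tested cytokine genes was called. Its 18 h levels were 30.7 ± 10 CPM after S14, 597 ± 59.8 CPM after LPS and 4.27 ± 1.9 CPM in untreated cells. S14 against LPS called 7 of 8 lower at both times and 0 higher, with a log2 fold change of -3.95 ± 0.14 SE for Socs1, also a feedback inhibitor, at 3 h (edgeR adjusted p = 5.53e-23). At 18 h Socs3 had -4.29 ± 0.2 SE in S14 over LPS (edgeR adjusted p = 1.31e-13). At 18 h S14 called 3 of 8 higher and 1 lower, and LPS called 6 higher and 0 lower. Under spike-in scaling the split was 1 higher and 4 lower for S14, and 3 and 0 for LPS. With the fourth untreated 18 h library left out of the spike-in fit, it was 1 and 1 for S14, and 5 and 0 for LPS.

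Among 17 transcription factors listed for these cytokine genes, S14 at 3 h called 10 higher and 1 lower (median 0.39, against -0.03 over all tested genes). LPS at 3 h called 13 higher and 3 lower (median 1.48, against -0.11), or 12 and 0 under spike-in scaling. Batf, an AP-1 family factor, rose to 25.2 ± 5.2 CPM after S14 and 101 ± 9.91 CPM after LPS, against 4.62 ± 1.68 CPM in untreated cells at 3 h. Its log2 fold changes were 2.45 ± 0.2 SE (edgeR adjusted p = 5.01e-13) and 4.44 ± 0.19 SE (edgeR adjusted p = 8.97e-24). Irf8, an interferon regulatory factor that acts on the Il12b promoter, had 146 ± 14.8 CPM after S14, 1230 ± 215 CPM after LPS and 175 ± 8.52 CPM in untreated cells at 3 h. Its log2 fold change in S14 over LPS was -3.08 ± 0.13 SE (edgeR adjusted p = 2.27e-17), and S14 against LPS called 3 of 17 higher and 13 lower, or 0 and 11 under spike-in scaling. At 18 h S14 called 4 of 17 higher and 1 lower, Bhlhe40 (-1.04 ± 0.23 SE, edgeR adjusted p = 0.000766). Under spike-in scaling 0 were higher and 13 lower, a split that rested on the fourth untreated 18 h library. With that library left out of the spike-in fit, 0 were higher and 2 lower. LPS at 18 h called 10 higher and 2 lower, with Cebpb at 654 ± 65.7 CPM after LPS and 119 ± 22 CPM in untreated cells (log2 fold change 2.45 ± 0.12 SE, edgeR adjusted p = 7e-19). That split was 2 higher and 3 lower under spike-in scaling, and 4 higher and 1 lower with the fourth untreated library left out. S14 against LPS at 18 h called 0 higher and 8 lower, or 0 and 5 under spike-in scaling, with Batf at -2.82 ± 0.17 SE (edgeR adjusted p = 9.06e-18).

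Of 4 factors that bind Il6 or Il12b mRNA and set its decay, 3 were higher 3 h after S14 (median 0.91, against -0.03 over all tested genes) and 4 after LPS (median 2.76, against -0.11), and 4 of 4 were lower after S14 than after LPS. Arid5a, which stabilises Il6 mRNA, had 20.2 ± 4.22 CPM after S14, 247 ± 10.2 CPM after LPS and 9.2 ± 1.45 CPM in untreated cells at 3 h. Its log2 fold changes were 1.11 ± 0.2 SE for S14 (edgeR adjusted p = 3.84e-05), 4.74 ± 0.18 SE for LPS (edgeR adjusted p = 3.05e-24) and -3.63 ± 0.16 SE for S14 over LPS (edgeR adjusted p = 1.68e-21). The others called higher by S14 at 3 h, named after their values were seen, were Zfp36 (1.06 ± 0.13 SE, edgeR adjusted p = 4.56e-07) and Zc3h12a (0.77 ± 0.12 SE, edgeR adjusted p = 2.37e-06). The list holds stabilising and decay-promoting factors, so its count and median give no direction for mRNA stability. At 18 h S14 called 1 of 4 higher, Arid5a at 0.64 ± 0.21 SE (edgeR adjusted p = 0.0225). Under spike-in scaling Arid5a was -0.43 and not called, and 0 were higher and 3 lower. With the fourth untreated 18 h library left out of the spike-in fit, Arid5a was 0.28 and not called, and 0 were higher and 0 lower. LPS at 18 h called 3 of 4 higher and 0 lower, with Arid5a at 2.09 ± 0.19 SE (edgeR adjusted p = 2.21e-12). Under spike-in scaling this was 2 and 1, and 3 and 0 with the fourth untreated 18 h library left out. In S14 against LPS at 18 h, 1 of 4 was higher after S14 and 3 lower, among them Zfp36, which promotes decay of AU-rich mRNAs (-1.59 ± 0.13 SE, edgeR adjusted p = 8.07e-11), and under spike-in scaling 0 were higher and 3 lower. Under spike-in scaling the genes higher 3 h after S14 were 3 of 8 JAK, STAT and SOCS genes, 5 of 17 transcription factors and 2 of 4 decay factors. With the fourth untreated 18 h library left out of the spike-in fit, they were 5, 7 and 3, in the same order. The other IL-6 family cytokines on the list were scarce. Of 6, only Osm (oncostatin M) passed the filter, and S14 against untreated called it at neither time (-0.02 ± 0.49 SE at 3 h, edgeR adjusted p = 0.991). LPS called Osm higher at 18 h (log2 fold change 2.14) but not at 3 h (0.72). S14 against LPS called it lower at 18 h (-1.85) but not at 3 h (-0.74). Lif, Il11, Clcf1, Ctf1 and Cntf had between 7 and 42 reads each over all 24 libraries.

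**Figure D4:**
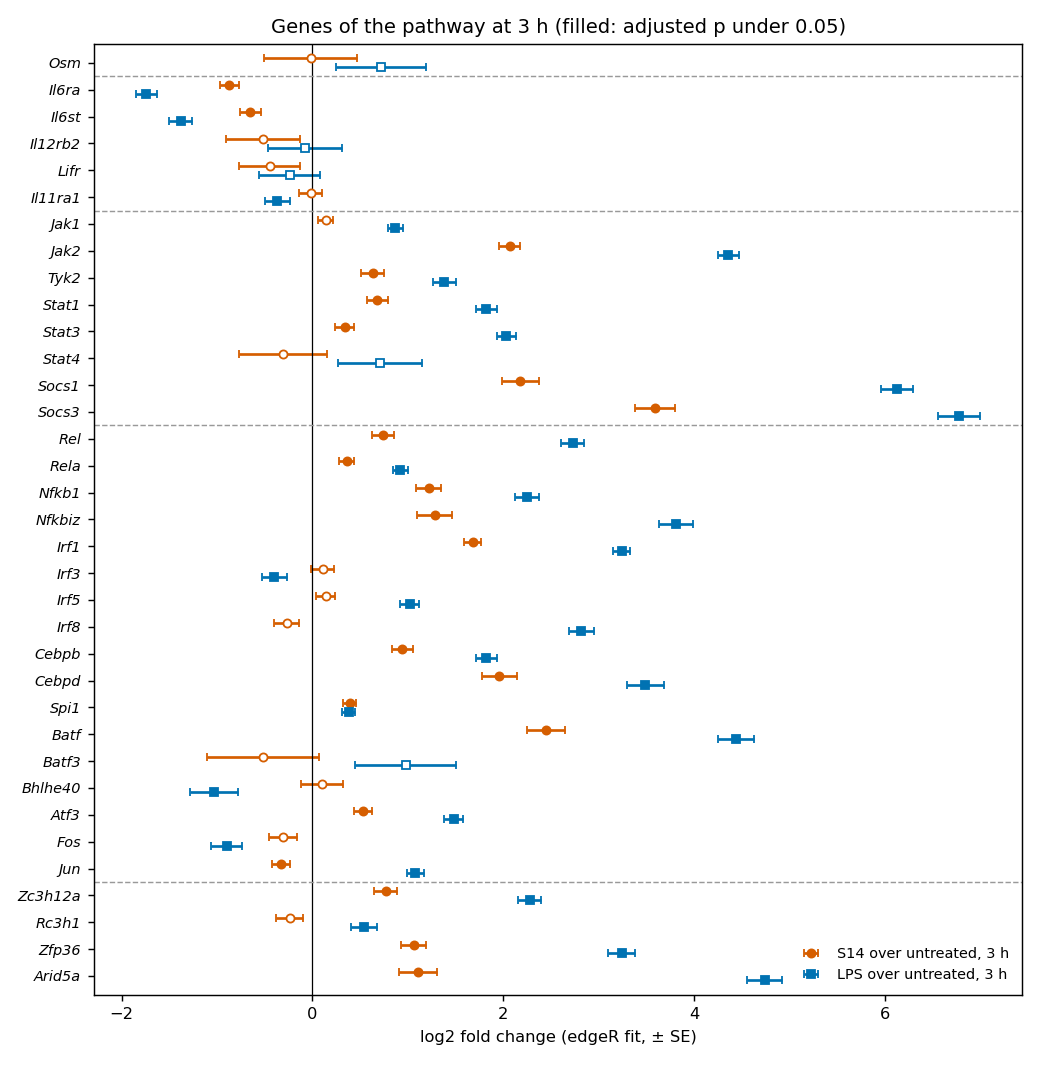
Log2 fold changes at 3 h (horizontal axis, edgeR, ± SE) for the tested genes of the lists with over 3 reads in each 3 h group, in the order IL-6 family cytokine, receptors, JAK/STAT/SOCS, transcription factors and mRNA decay factors, separated by dashed lines. Filled symbols passed an adjusted p of 0.05. Socs3 lies at 3.59 for S14 and 6.78 for LPS, and Il6ra at -0.87 and -1.74.

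The genes whose levels followed each member most closely over the 24 libraries were found by Pearson correlation of log2 CPM, among 9055 genes reaching 10 CPM in a group. Libraries of a group share their treatment, so these values describe group patterns and carry no p. Closest to Il6 were Peli1 (r = 0.987), Ccrl2 (0.985) and Lcp2 (0.984). Closest to Il12b were Adamts4 (0.976), Csf1 (0.975) and Shisa3 (0.975). Il27 was followed by Daxx (0.984), Ifit1 (0.979) and Hdc (0.979), and Ebi3 by Mxd1 (0.976), Srgn (0.973) and Atf3 (0.971). Adamts4, a secreted protease, had 10.6 ± 3.16 CPM after S14, 128 ± 14.1 CPM after LPS and 0.174 ± 0.225 CPM in untreated cells at 3 h. Mxd1, a partner of MAX that represses transcription, had 374 ± 126 CPM after LPS and 30.2 ± 11.5 CPM in untreated cells at 18 h, so it stayed high late after LPS as Ebi3 did. Among the members themselves, r was 0.968 for Il6 and Il27, 0.939 for Il6 and Il12b, 0.911 for Il12b and Il27, 0.872 for Il27 and Ebi3, 0.844 for Il6 and Ebi3 and 0.696 for Il12b and Ebi3.

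Positions on GRCm38 (GENCODE M21) were checked for neighbours that could share reads, since no source used here states whether the counting used the strand. All 6 are protein-coding. Il6 lies at chr5:30013114-30019981, Il12a at chr3:68690644-68698547, Il12b at chr11:44400063-44414033 and Il23a at chr10:128296139-128298752, and none of them overlaps another annotated gene. Il27, at chr7:126589010-126594941 on the minus strand, overlaps Apobr on the plus strand. Apobr, a lipoprotein receptor gene, had 116 to 130 CPM after S14, 135 to 152 CPM after LPS and 89.2 to 107 CPM in untreated libraries at 3 h. Relative to its level it changed far less than Il27. In CPM its rise after S14 was not smaller than that of Il27, which went from a mean of 2.21 to 13.4 CPM. What part Apobr reads had in the Il27 counts was not tested. Ebi3, at chr17:55952640-55957022 on the plus strand, overlaps the antisense gene Gm16712, which had at most 2.86 CPM in any library.

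Dendritic cells also make these cytokines, and their 6 markers (Flt3, Zbtb46, Xcr1, Clec9a, Siglech and Ccr7) were near 0. At 3 h their summed level was 0.706 to 2.84 CPM after S14 (4 of 6 with reads, Flt3 and Clec9a at 0), 1.46 to 5.29 CPM after LPS (5 of 6, Xcr1 at 0) and 0.225 to 3.06 CPM in untreated libraries (3 of 6, Flt3, Xcr1 and Ccr7 at 0). At 18 h the sum was 0.443 to 3.5 CPM after S14, 1.12 to 3.04 CPM after LPS and 0.194 to 3.15 CPM in untreated libraries. The 6 neutrophil markers summed to 40.7 to 50.4 CPM after LPS at 18 h (4 with reads, Mpo and Elane at 0), against 2.47 to 9.09 CPM after S14 and 1.74 to 4.64 CPM in untreated libraries. S100a8 made up nearly all of it, at 45.5 ± 4.04 CPM after LPS, 5.18 ± 2.46 CPM after S14 and 1.95 ± 1.01 CPM in untreated cells, whereas S100a9 had 0.459 ± 0.509, 1.04 ± 1.1 and 0.777 ± 0.825 CPM in the same order of groups, Ly6g had 1 read and Camp 12 after LPS. At 3 h the sum was 5.59 to 11.4 CPM after S14, 7.53 to 34.6 CPM after LPS and 2.64 to 3.83 CPM in untreated libraries. B cell markers (4, nearly all Ighm reads) ran lowest after LPS at 18 h, at 0 to 0.937 CPM, against 12.8 to 23.7 CPM after S14 and 95.6 to 173 CPM in untreated libraries. The 4 fibroblast markers summed to 10.3 to 17.5 CPM after LPS at 18 h (Col1a2 and Pdgfra at 0) and to at most 1.99 CPM in the other groups. Dcn carried that sum, with 240 reads after LPS at 18 h, beside 1 read of Col1a1. The 5 T and NK cell markers summed to at most 2.11 CPM and the 4 mast cell markers to at most 0.779 CPM in any library. What part these lists had in the 18 h cytokine levels was not tested.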

How the data were processed

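The main values are the authors' raw counts, which cover 55401 genes besides 7 ribosomal RNA entries in 24 libraries of 6 groups; per the labels' protocols, a QuantSeq 3' FWD kit was used. Another table, deposited by the authors as normalized, holds a signal: counts that were divided by a library's size factor. Undoing that division gave whole reads for 100.0% of values within 0.001 read, and reads differed between the tables for 7689 genes. Per the submitters' processing notes, the build was GRCm38 and the tools named include STAR 2.6.1a and featureCounts 1.6.4 of Subread, besides DESeq2, FastQC and cutadapt 1.18; no source used here states their order or the strand setting. The header of the count table calls the controls "Veh" and the labels call them untreated.

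The ribosomal RNA entries (0.132% to 0.469% of reads) were set aside. Genes were filtered by group (edgeR filterByExpr, minimum count 10, minimum total 15), scaled by TMM and fitted with edgeR 4.0.16 (robust quasi-likelihood, 1 mean per group, 18 residual degrees of freedom). Tests were F tests with Benjamini-Hochberg adjustment over 11717 genes, called under 0.05; SE is the log2 fold change over the square root of F. Pair counts of replicates differed by 2.63 to 22.67 times the sampling noise (chi-square per degree of freedom), so no pair of libraries agreed within sampling noise. Il12a and Il23a, below the filter, were tested by exact permutation. Counting intervals (95%) and floors (3 reads over a group) pool the reads of a group, so they reflect counting error alone and leave out the spread between libraries. PCR copies were not marked by molecular identifiers, so copies of a molecule could be counted as separate reads.

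The members and the gene lists were chosen with earlier results of these data known, and 1 gene of the IL-6 family list is not reported here. The text names the 6 members, from each list the called gene with the largest change per comparison at 10 CPM or more, and the 3 genes most correlated with each tested member. Marker lists of 7 cell types were read as summed CPM. Alternatives were RLE size factors, DESeq2 1.42.0, no filter, a minimum count of 30, only the groups compared, the replicate block, each library left out, the second table's reads, scaling by its spike-in RNAs (62 of 114 with reads), and unscaled CPM for levels. The spike-in fit without the fourth untreated 18 h library, the list counts under other scalings and the read ratios between members were added after seeing the data. The fitting was tested on simulated data.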

Additional observations from a re-analysis of the deposited data

Results flagged for a closer look

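In 7 of the 29 sets of 4 libraries examined (1 member in 1 group), a library stood apart by the gap test of Dixon. Its chance rate of about 1 in 20 holds for continuous values and not for 6 of these, where 1 library alone had reads and the gap is the whole range by construction: Il12b at 1.33 CPM (6 reads) in the third S14 library at 18 h, Il6 at 0.199 CPM (1 read) in the first S14 library at 18 h, Il12a at 0.581 CPM (3 reads) in the first untreated library at 18 h, Il12b at 0.28 CPM (2 reads) in the third untreated library at 18 h, Il12b at 0.45 CPM (2 reads) in the second untreated library at 3 h, and Il6 at 0.225 CPM (1 read) in the same library. The other was Ebi3 in the first S14 library at 3 h, at 209 CPM against 202 CPM in the nearest.

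Responses that differed between 18 h and 3 h by the interaction test (log2 differences, 18 h minus 3 h) were -2.74 for Il27 and -1.0 for Ebi3 after S14, and -6.85 for Il12b, -5.07 for Il27 and -0.47 for Ebi3 after LPS.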

How the results depend on the processing

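Of 762 values of single tested members under the alternatives, 742 kept their side of the threshold, whether or not an uncalled value changed sign. Of the rest, 13 lost a call, 7 gained one, and 0 changed sign with a call. Il12b accounted for 15 of these 20 changes, all in comparisons with 18 h groups of 11 reads or fewer. For LPS over untreated at 18 h, its call (edgeR adjusted p = 0.0498) was lost with RLE size factors (0.0513), only the groups compared (0.115) and both spike-in fits (0.0721 with all libraries, 0.0596 without the fourth untreated 18 h library). It was also lost in 5 of the 8 fits without 1 library, whose log2 fold changes ran from 1.21 to 4.6. The 4.6 came without the only untreated 18 h library that held Il12b reads. The call held with DESeq2 (adjusted p = 0.0332) and the second table's reads (0.0176). Without the third S14 library at 18 h, the difference of the Il12b response to S14 between times was called (-8.33 ± 2.54 SE, edgeR adjusted p = 0.0217). The S14 18 h group then had no Il12b read, so the size of this difference is not usable.

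Scaling by spike-in RNAs moved the median of all genes by 0.11 (S14) and 0.34 (LPS) at 3 h and by -0.97 and -0.64 at 18 h (log2), or -0.48 and -0.16 at 18 h without the fourth untreated 18 h library. Genes called were then 374 (346 higher, 28 lower) instead of 1786 (1060 higher, 726 lower) for S14 over untreated at 3 h, 3296 (2341 higher, 955 lower) instead of 6500 (2964 higher, 3536 lower) for LPS over untreated at 3 h, and 2232 (612 higher, 1620 lower) instead of 5399 (2775 higher, 2624 lower) for S14 over LPS at 3 h. At 18 h they were 7639 (106 higher, 7533 lower) instead of 2844 (1480 higher, 1364 lower) for S14 over untreated, 5221 (695 higher, 4526 lower) instead of 6517 (3200 higher, 3317 lower) for LPS over untreated and 1915 (519 higher, 1396 lower) instead of 4996 (2496 higher, 2500 lower) for S14 over LPS. Between the times they were 1775 (462 higher, 1313 lower) instead of 5061 (2463 higher, 2598 lower) after S14, 4386 (1641 higher, 2745 lower) instead of 7538 (3710 higher, 3828 lower) after LPS and 5639 (5426 higher, 213 lower) instead of 4547 (2249 higher, 2298 lower) in untreated cells. The change of the response was called for 4115 (20 higher, 4095 lower) instead of 1944 (892 higher, 1052 lower) genes with S14 and for 4857 (381 higher, 4476 lower) instead of 6000 (2943 higher, 3057 lower) with LPS. Without the fourth untreated 18 h library, spike-in scaling gave 795 for S14 over untreated and 3479 for S14 over LPS at 3 h, 2291 (130 higher, 2161 lower) for S14 over untreated and 3985 (1431 higher, 2554 lower) for LPS over untreated at 18 h, and 2426 (2057 higher, 369 lower) for untreated cells over time. The cause was not tested.

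Among members, spike-in scaling with all libraries also ended the Ebi3 call in LPS cells over time (-0.56, edgeR adjusted p = 0.158), made Ebi3 higher at 18 h in untreated cells (0.99, edgeR adjusted p = 0.00956) and called the Il12b difference of the S14 response (-5.38, edgeR adjusted p = 0.0372). Without the fourth untreated 18 h library the last was -5.5 (edgeR adjusted p = 0.027), and the Ebi3 calls were as in the main fit. That library held 705 spike-in reads, 0.0134% of spike-in and gene reads, against 0.0334% to 0.0419% in the others of its group. Unscaled CPM moved 6 levels by over 1 SD, all at 3 h, such as 243 instead of 319 CPM for Il6 after LPS.

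The labels give no meaning to a shared replicate number. Over 60 same-numbered pairs of libraries between groups, the correlation of deviations ran from -0.101 to 0.143 (median 0.026) and 1 was over 0.1. The main fit did not treat the numbers as pairs. In 37 of the 60 the library correlated best with its own number, where unrelated numbers would give about 15, a hint of a weak shared deviation from the data and not from the design. A replicate block changed 1 member's call, Il12b for LPS over untreated at 18 h (2.62, edgeR adjusted p = 0.0692). Depth limits Il12a and Il23a throughout and Il6 and Il12b at 18 h, where most libraries held 0 to 28 reads.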
